A study of Mus musculus with 8 samples.

Results

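Interferon-stimulated genes are the transcripts that cells turn on when an interferon reaches them, and 39 of them were chosen by name for a comparison between livers of mice given alcohol and livers of control mice. Of these, 37 were found by gene symbol among the 21049 genes of the expression table, and Mx1 and Mx2 were not analysed here. They were sorted by role into 21 type I-type genes, 9 gamma-type GTPases, 3 sensors of viral nucleic acid and 4 STAT or IRF transcription factors. Type I-type genes are effectors and regulators best known as targets of type I interferons. Gamma-type GTPases are best known as targets of interferon gamma. The choice rested on gene names and not on measured values, although it was made with earlier results of these data known.

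Interferons are secreted alarm proteins. Type I interferons bind a receptor on most cells, and the Janus kinases on that receptor phosphorylate STAT proteins, which join IRF9 and bind the interferon-stimulated response element. Interferon gamma uses another receptor, and its signal ends at the gamma-activated site. In the liver, hepatocytes, macrophages and endothelial cells all carry such receptors and keep a low level of these transcripts without infection.

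RNA was sequenced from 4 alcohol samples and 4 control samples. The alcohol group is labelled wild type and treated with alcohol, and the design text describes it as alcohol-fed. The control group is labelled wild type and treated with saline. The design text names C57BL/6, an inbred mouse strain, and both groups carry the same batch label. The sources used here do not give age, sex, alcohol dose or length of treatment. No label says whether samples came from separate animals, so each p-value weighs the spread among the samples, which may be technical. The labels name no interferon and no virus as a treatment, so the gene list is named for its known regulation and not for a treatment. The labels give liver as the tissue and also AML12, a line of mouse hepatocytes. Every library held transcripts of sinusoidal endothelium (summed level 89.2 to 109 FPKM with alcohol and 19.6 to 29.9 FPKM in controls, over 11 marker genes) and of Kupffer cells (87.4 to 140 FPKM with alcohol and 69.1 to 201 FPKM in controls, over 13 marker genes), which a hepatocyte line alone does not make. Library totals recovered from the values were 37132631 to 38407511 reads with alcohol and 33872595 to 34789814 reads in controls. Alcohol samples 2 and 4 resembled each other much more than any other pair within a group did, with a chi-square per gene of 7.63 against 38.7 or more, so the counts are also given with these samples averaged as 1.

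Promoter sequences show the elements through which several of these genes are known to be driven. RefSeq promoter windows (build GRCm38.p6, from 250 bases before to 50 bases after each start site) were found for 28 of the 39 named genes. Each was searched on both strands for GAAANNGAA, a core of the interferon-stimulated response element, and for TTCNNNGAA, the gamma-activated site, where N is any base. Matches may overlap, as in Bst2, where both strings share bases. The 250 bases before the start are printed below, 5′ to 3′ on the strand of the gene, with every match in capitals, for Ifit1, Irgm1, Ifih1 and Stat2, which had the smallest p of their roles among genes with a match, and, chosen with values known, for Isg15 and Irf1.
Isg15 (chr4:156200819-156201068, minus strand): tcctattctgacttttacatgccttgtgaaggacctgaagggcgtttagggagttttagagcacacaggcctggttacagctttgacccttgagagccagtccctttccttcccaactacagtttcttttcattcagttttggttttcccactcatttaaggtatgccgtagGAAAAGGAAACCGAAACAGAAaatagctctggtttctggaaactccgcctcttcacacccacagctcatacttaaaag
Ifit1 (chr19:34640639-34640888, plus strand): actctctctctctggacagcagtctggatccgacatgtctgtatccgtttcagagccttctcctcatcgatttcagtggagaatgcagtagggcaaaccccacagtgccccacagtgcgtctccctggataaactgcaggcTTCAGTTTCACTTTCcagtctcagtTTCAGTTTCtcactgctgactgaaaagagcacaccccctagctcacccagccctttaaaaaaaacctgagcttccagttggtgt
Irgm1 (chr11:48871421-48871670, minus strand): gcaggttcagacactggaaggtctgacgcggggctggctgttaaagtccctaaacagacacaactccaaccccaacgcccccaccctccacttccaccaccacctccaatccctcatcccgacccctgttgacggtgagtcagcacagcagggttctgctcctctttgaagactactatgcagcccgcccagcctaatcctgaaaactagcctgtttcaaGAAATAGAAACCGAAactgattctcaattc
Ifih1 (chr2:62646256-62646505, minus strand): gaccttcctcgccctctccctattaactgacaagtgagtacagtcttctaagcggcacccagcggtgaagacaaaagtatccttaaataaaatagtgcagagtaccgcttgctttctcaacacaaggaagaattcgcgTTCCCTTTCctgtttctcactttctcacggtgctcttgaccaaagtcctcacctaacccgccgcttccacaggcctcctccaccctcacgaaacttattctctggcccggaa
Stat2 (chr10:128270248-128270497, plus strand): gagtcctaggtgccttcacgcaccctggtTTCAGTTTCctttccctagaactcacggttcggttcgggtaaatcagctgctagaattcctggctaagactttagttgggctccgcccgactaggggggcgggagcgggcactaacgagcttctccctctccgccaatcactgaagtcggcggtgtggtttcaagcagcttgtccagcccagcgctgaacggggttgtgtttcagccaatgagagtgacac
Irf1 (chr11:53769764-53770013, plus strand): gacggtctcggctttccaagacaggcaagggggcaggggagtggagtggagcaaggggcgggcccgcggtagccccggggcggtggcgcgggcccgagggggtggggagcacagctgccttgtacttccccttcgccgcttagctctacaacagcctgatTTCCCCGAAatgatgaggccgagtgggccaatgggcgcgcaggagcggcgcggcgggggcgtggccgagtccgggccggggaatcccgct

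Isg15 held 3 overlapping response elements between 78 and 58 bases before its start, and Ifit1 held 3 on the other strand between 109 and 76 bases before its start. Irgm1 held 2, between 30 and 16 bases before its start. Ifih1 held 1 at 112 bases before its start and another after it, outside the printed stretch. The capitals in Stat2 are 1 response element at 221 bases before the start, and those in Irf1 are a gamma-activated site at 90 bases before it. Of the 28 genes with a window, 18 (64.3%) held the response element, against 9.76% of 27025 genes with RefSeq windows, and 7 (25%) held the gamma-activated site, against 9.55%. By role, the response element was found in 10 of 16 type I-type genes, 6 of 7 GTPases, the 1 sensor with a window and 1 of 4 factors. Irf7, Irf9, Ifi47 and Xaf1, which were called lower with alcohol, had no match in these windows. Neither did Cmpk2, Dtx3l, Oasl1 and Oasl2, which were not called. The response element was present in 10 of 14 genes called lower with alcohol (71.4%) and in 8 of 14 not called (57.1%). The gamma-activated site was present in 3 of 14 (21.4%) and 4 of 14 (28.6%). Either string was present in 10 of 14 (71.4%) of both, so the presence of either did not separate them. These differences were not tested. A match is a description of letters and was not tested for binding.

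With alcohol, 16 of the 24 interferon-stimulated genes that reached a mean of 1 FPKM were lower and none was higher (limma, Benjamini-Hochberg adjusted p under 0.05 over all 9228 tested genes). Isg15, a ubiquitin-like protein, led with a mean 4.05-fold lower. Next, Ifit1, Ifi47, Iigp1, Zbp1, Ifi27, Ifit3 and Irf7 were between 2.30-fold and 3.41-fold lower. Among all tested genes 13% were lower and 44.2% were higher, so the list ran against the direction of most calls. FPKM (fragments scaled to gene length and library total) is a level per length. Log2 changes are differences in mean log2(FPKM + 1), alcohol minus control, and they understate the change of low genes. The median log2 change was -0.62 over the 24 members and 0.24 over all tested genes, a distance of -0.86, and all 24 members lay below the median of all genes. With alcohol 2 and 4 averaged, 14 of the 24 were lower (6 type I-type genes, 3 GTPases, 3 sensors and 2 factors) and none was higher. The other 13 members were under 1 FPKM on average and were fitted with all 21049 genes. In that fit 18 of the 37 members were lower and none was higher, against 6.39% lower and 24.2% higher among all genes, and 33 of the 37 had a change below 0. In bulk tissue, fewer cells of a type and less RNA per cell cannot be told apart.

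The groups themselves did not overlap, with every alcohol sample below every control sample, in 18 of the 37 members. This held for 6.85% of all genes listed. For each of the 18, the exact 2-sided permutation p of the difference in mean FPKM was 0.0286, the smallest that 70 assignments of 4 samples to each group can give. Every gene without overlap has this p, so it restates the lack of overlap and adds nothing to it. No member had every alcohol sample above every control sample, which held for 24.8% of all genes listed.

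**Figure D1:**
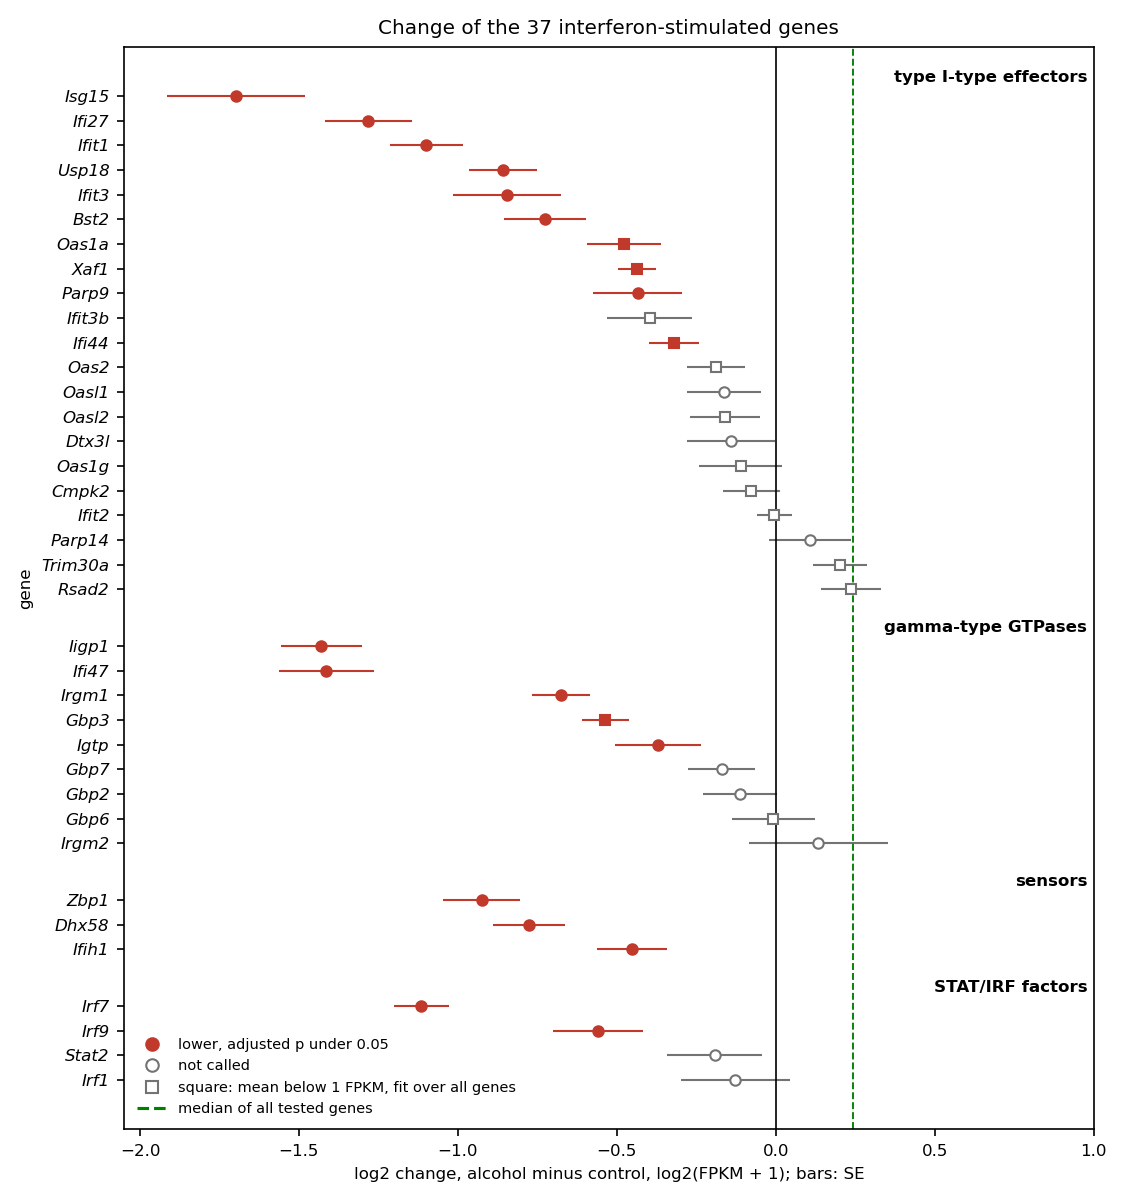
Log2 change of each of the 37 genes (alcohol minus control, log2(FPKM + 1); bars, SE), grouped by role. Filled red points were lower with an adjusted p under 0.05, open points were not called, squares are genes below 1 FPKM fitted with all genes, and the dashed green line is the median of all tested genes at 0.24. The red points run from Isg15 at -1.70 to Ifi44 at -0.32, and no point passed the threshold on the right.

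Of the type I-type genes, 7 of 10 tested members were lower, with a median log2 change of -0.79, and in the fit over all genes 9 of 21 were lower. Isg15, a ubiquitin-like protein that is attached to other proteins and also secreted, stood at 4.22, 3.56, 2.58 and 2.71 FPKM in alcohol samples 1 to 4, against 7.68, 18.2, 13.2 and 13.8 FPKM in control samples 1 to 4. The highest alcohol sample was below the lowest control sample, which was control 1. The mean was 3.27 ± 0.768 FPKM with alcohol and 13.2 ± 4.31 FPKM in controls (SD, n = 4 each), with a log2 change of -1.70 ± 0.22 (SE) and an adjusted p of 0.000118.

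Ifit1, which binds viral RNA that lacks the host's cap methylation, stood at 1.13, 0.847, 0.948 and 0.725 FPKM with alcohol, against 2.45, 3.68, 3.36 and 2.97 FPKM in controls. The groups were apart, and the alcohol mean of 0.912 FPKM was itself under the expression minimum, so this gene entered the test through its control values. Its log2 change was -1.10 ± 0.11, with an adjusted p of 3.38e-05, and it was 3.41-fold lower. Ifit3, a partner of Ifit1, stood at 1.19, 1.96, 1.29 and 1.41 FPKM with alcohol, against 2.14, 4.59, 3.92 and 3.34 FPKM in controls, with control 1 again the lowest control and no overlap. Its log2 change was -0.85 ± 0.17 (adjusted p 0.00178). Ifit3 and Ifit3b share sequence, with 51.2% of the 50-base stretches of the Ifit3 transcript also found in Ifit3b, so the division of reads between them is uncertain. Ifit3b itself, with 16 to 92 reads a sample, had a log2 change of -0.40 that did not pass (adjusted p 0.0578 in the fit over all genes).

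Ifit2, a relative of Ifit1 in the same cluster, had nearly equal levels in both groups. Its samples stood at 0.252, 0.426, 0.442 and 0.457 FPKM with alcohol, against 0.395, 0.461, 0.350 and 0.379 FPKM in controls, on 42 to 74 reads. Its log2 change was -0.0045 ± 0.055 (SE), with an adjusted p of 0.969. The 4 Ifit genes lie together on chromosome 19, from the start of Ifit2 at 34550694 to the end of Ifit1 at 34650009 (GENCODE M21, GRCm38).

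Usp18, the protease that removes ISG15 from proteins and also damps the type I receptor, stood at 2.98, 2.49, 2.38 and 1.92 FPKM with alcohol, against 4.98, 5.57, 5.14 and 5.15 FPKM in controls. The control samples were tight and all above the alcohol samples, with a log2 change of -0.86 ± 0.11 and an adjusted p of 9.8e-05. Ifi27, a small hydrophobic interferon-induced protein, stood at 27.1, 23.4, 21.6 and 20.2 FPKM with alcohol, against 69.9, 47.6, 59.9 and 53.7 FPKM in controls. It was 2.50-fold lower without overlap (log2 change -1.28 ± 0.14, adjusted p 3.67e-05). Bst2, also called tetherin, which holds budding virus at the cell surface, was the most abundant member, at 84.6, 120, 85.8 and 92.9 FPKM with alcohol, against 155, 149, 152 and 175 FPKM in controls. Alcohol 2 came nearest to the controls without reaching them, and the log2 change was -0.73 ± 0.13 (adjusted p 0.000869).

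Among the low type I-type genes, Xaf1, a binding partner of the apoptosis inhibitor XIAP, stood at 0.436, 0.366, 0.307 and 0.379 FPKM with alcohol, against 0.701, 0.962, 0.896 and 0.879 FPKM in controls. It had no overlap on 72 to 202 reads (log2 change -0.44 ± 0.06, adjusted p 0.00151 over all genes). Oas1a, which makes the oligoadenylates that switch on RNase L, stood at 0.751, 0.636, 0.401 and 0.539 FPKM with alcohol, against 1.59, 0.957, 0.977 and 1.32 FPKM in controls, with an adjusted p of 0.017. The groups did not overlap, but 57.6% of the 50-base stretches of Oas1a are also found in Oas1g, whose own change was not called. Ifi44, a cytoplasmic interferon-induced protein, was lower by 0.32 on the log2 scale (adjusted p 0.0182), and this call was lost on the TPM scale and without alcohol 3, alcohol 4 or control 3.

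Other type I-type genes did not pass. Rsad2 (viperin, which makes an antiviral nucleotide) had a mean of 1.01 ± 0.182 FPKM with alcohol and 0.703 ± 0.155 FPKM in controls, with a log2 change of 0.24 and an adjusted p of 0.0981. Its neighbour Cmpk2, a mitochondrial nucleotide kinase, had a log2 change of -0.08. Trim30a, a tripartite motif protein, had a log2 change of 0.20 (adjusted p 0.116). For the other oligoadenylate synthetase genes, the log2 changes were -0.19 in Oas2, -0.16 in Oasl1, -0.16 in Oasl2 and -0.11 in Oas1g, none of which passed.

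Parp9, Dtx3l and Parp14 lie together on chromosome 16. Parp9 and Dtx3l form a complex of an ADP-ribosyltransferase and a ubiquitin ligase, and their largest exon overlap is 367 bases, on opposite strands. The sources used here do not say whether the libraries kept strand, so reads there cannot be told apart. Parp9 stood at 8.88, 6.21, 7.24 and 6.29 FPKM with alcohol, against 12.1, 9.16, 10.7 and 8.19 FPKM in controls, and the groups overlapped. It was lower by 0.43 on the log2 scale (SE 0.14, adjusted p 0.0214), but this call was lost on the TPM scale, without the expression minimum, with alcohol 2 and 4 averaged, and without alcohol 2, alcohol 4 or control 3. Dtx3l had a log2 change of -0.14 (adjusted p 0.404). Parp14, another ADP-ribosyltransferase, had a log2 change of 0.11 (adjusted p 0.498), and its sign turned with median-of-ratios scaling, quantile normalization and removal of the gene length trend.

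**Figure D2:**
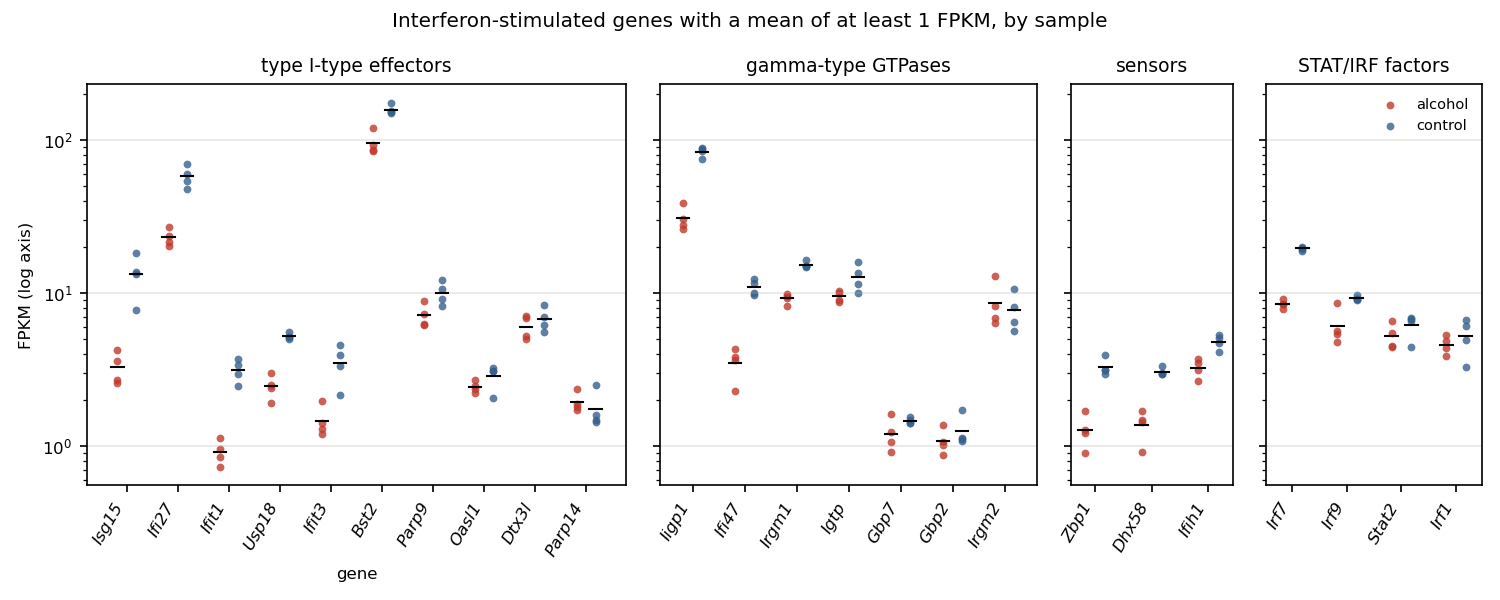
FPKM on a log axis of the 24 members with a mean of at least 1 FPKM, by role, with alcohol samples in red and control samples in blue; bars are group means. In Isg15, Ifi27, Iigp1, Ifi47 and Irf7 every red point lies below every blue point, while Parp14, Irgm2 and Irf1 overlap.

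The gamma-type GTPases, which attack the vacuoles of intracellular pathogens, split by gene, with 4 of 7 tested members lower and a median log2 change of -0.37. Iigp1 (also called Irga6) stood at 38.5, 26.2, 28.0 and 30.5 FPKM with alcohol, against 88.1, 85.0, 87.3 and 75.3 FPKM in controls. The groups were far apart, 2.73-fold in the mean, on 3389 to 10671 reads a sample, with a log2 change of -1.43 ± 0.13 and an adjusted p of 1.14e-05. Ifi47 (also called Irgd) stood at 4.30, 3.79, 2.29 and 3.64 FPKM with alcohol, against 12.4, 9.62, 11.5 and 9.93 FPKM in controls. It was 3.10-fold lower without overlap (log2 change -1.41 ± 0.15, adjusted p 3.57e-05).

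Irgm1, a regulatory GTPase that keeps the effector GTPases inactive on the cell's own membranes, stood at 9.87, 9.53, 8.24 and 9.25 FPKM with alcohol, against 14.9, 15.0, 16.4 and 15.0 FPKM in controls. Its groups were tight and apart, with a log2 change of -0.68 ± 0.09 and an adjusted p of 0.000166. Irgm2, its regulatory relative, stood at 12.9, 6.40, 8.22 and 6.87 FPKM with alcohol, against 10.6, 5.61, 8.03 and 6.42 FPKM in controls. Sample 1 was highest in both groups, the groups overlapped, and the log2 change of 0.13 did not pass (adjusted p 0.616) and was negative with median-of-ratios scaling, with quantile normalization and without alcohol 1. Igtp (also called Irgm3) was lower by 0.37 on the log2 scale (adjusted p 0.0361) with overlapping groups. Its largest exon overlap with Irgm2, on the same strand, is 162 bases. Of its 50-base stretches, 12.3% are also found in Irgm2. Its call was lost on the TPM scale, without the expression minimum, after removal of the gene length trend and with alcohol 2 and 4 averaged. It was also lost without any 1 of alcohol 2, alcohol 4, control 3 and control 4.

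In the guanylate-binding proteins, Gbp3 stood at 0.601, 0.568, 0.467 and 0.738 FPKM with alcohol, against 1.29, 1.27, 1.44 and 1.24 FPKM in controls. The groups were apart on 57 to 159 reads, with a log2 change of -0.54 ± 0.07 (adjusted p 0.0016 over all genes). Gbp2 lies on chromosome 3, as Gbp3 does. It had 1.08 ± 0.212 FPKM with alcohol and 1.25 ± 0.303 FPKM in controls, which did not pass (log2 change -0.11, adjusted p 0.42). Gbp7 had a log2 change of -0.17 (adjusted p 0.188) and Gbp6 of -0.01 (adjusted p 0.975). In Gbp6, 90.2% of the 50-base stretches are also found in the gene Gm43302, so its reads are uncertain.

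All 3 sensors of the list were lower without overlap between the groups. The RNA sensor RIG-I (Rigi), which is outside these 3, had overlapping groups and did not pass (log2 change -0.22, adjusted p 0.138). With median-of-ratios scaling Rigi passed as lower (-0.47, adjusted p 0.00541). Zbp1, which binds nucleic acid in the Z form and can start cell death, stood at 1.69, 0.897, 1.22 and 1.27 FPKM with alcohol, against 3.15, 2.96, 3.13 and 3.92 FPKM in controls (log2 change -0.93 ± 0.12, adjusted p 0.000134). Dhx58, or LGP2, which assists the RNA helicase sensors, stood at 1.46, 1.42, 1.70 and 0.912 FPKM with alcohol, against 2.93, 3.31, 2.93 and 2.98 FPKM in controls. Its control samples were close to each other and all above the alcohol samples, with a log2 change of -0.78 ± 0.11 and an adjusted p of 0.000267. Ifih1, or MDA5, a sensor of long double-stranded RNA, stood at 3.70, 2.64, 3.48 and 3.15 FPKM with alcohol, against 5.28, 5.09, 4.73 and 4.11 FPKM in controls. Its change was the smallest of the 3, at -0.45 ± 0.11 on the log2 scale (adjusted p 0.00537).

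Of the 4 transcription factors, Irf7 and Irf9 were lower and Stat2 and Irf1 did not pass. Irf7, which drives the interferon alpha genes and is itself induced by interferon, had the smallest p of all members. It stood at 8.50, 8.51, 7.86 and 9.08 FPKM with alcohol, against 19.7, 18.9, 20.1 and 19.5 FPKM in controls. Within each group the samples lay within a narrow band, at 8.49 ± 0.497 FPKM with alcohol and 19.5 ± 0.511 FPKM in controls (SD, n = 4 each). The mean was 2.30-fold lower, with a log2 change of -1.11 ± 0.09 and an adjusted p of 4.3e-06. Irf9, the DNA-binding part of the complex that type I interferons activate, stood at 8.52, 5.39, 4.79 and 5.61 FPKM with alcohol, against 9.72, 8.97, 9.14 and 9.14 FPKM in controls. Alcohol 1 came close to the controls while the other alcohol samples lay well below them (log2 change -0.56 ± 0.14, adjusted p 0.00675).

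Stat2 stood at 6.51, 4.48, 4.45 and 5.48 FPKM with alcohol, against 6.89, 6.70, 4.40 and 6.54 FPKM in controls. Control 3 was as low as the lowest alcohol samples, and the log2 change of -0.19 ± 0.15 did not pass (adjusted p 0.291). Irf1, a factor that interferon gamma induces through its gamma-activated site, stood at 5.31, 4.81, 3.88 and 4.35 FPKM with alcohol, against 6.03, 6.66, 3.26 and 4.94 FPKM in controls. The controls spread more widely than the alcohol samples and enclosed them, with a log2 change of -0.13 (adjusted p 0.542).

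Closely related members were set against each other within each sample, since a ratio of genes in a library is not moved by how that library was scaled. The 6 pairs were chosen with their values known, and in all but Gbp3 to Gbp2 the first gene is the shorter. Short genes ran lower than long ones, as given below, and the part of gene length in these ratios was not tested. The log2 ratio of Ifit1 to Ifit2 was 1.23 ± 0.65 with alcohol and 2.96 ± 0.257 in controls (SD, n = 4 each), a difference of -1.73. The ratio of Irf7 to Irf1 was 0.89 ± 0.178 with alcohol and 1.95 ± 0.488 in controls, a difference of -1.06. For Gbp3 to Gbp2 it was -0.86 ± 0.0711 with alcohol and 0.09 ± 0.225 in controls, a difference of -0.95. In each of these pairs the called gene was lower against its relative in every alcohol sample than in any control sample. The same separation was seen for Parp9 to Parp14, with a difference of -0.66, and for Parp9 to Dtx3l, with a difference of -0.32. The log2 ratio of Irgm1 to Irgm2 differed by -0.88 with overlapping groups. Each pair sets a member called lower against a relative that was not called, so the direction of these differences was fixed by the choice of pairs, and they are given as a description with no test.

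**Figure D3:**
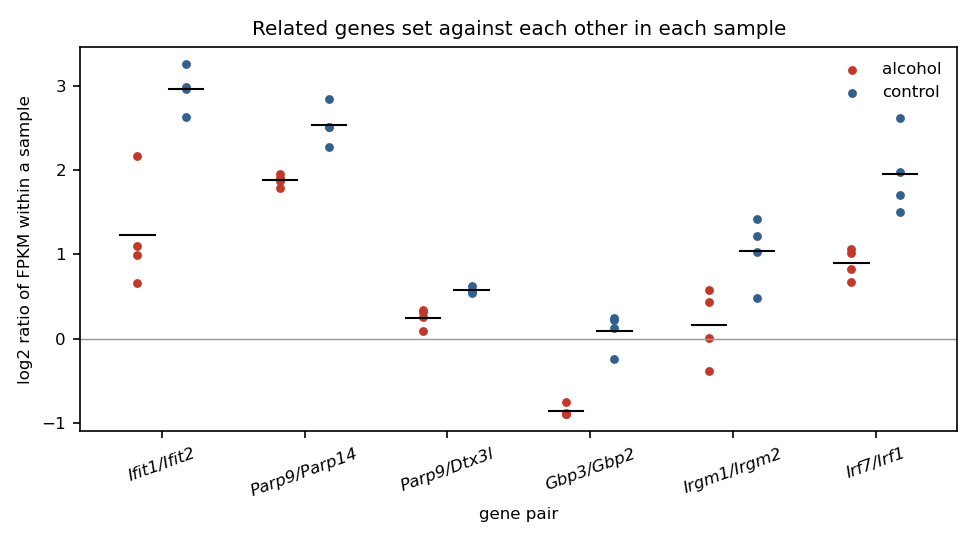
Log2 ratio of FPKM of related members within each sample, with alcohol samples in red and control samples in blue; bars are group means. Red points lie below all blue points in 5 of the 6 pairs, and Irgm1/Irgm2 overlaps.

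Some called members share exon bases with other genes, whose reads cannot be told apart from theirs there. By the largest overlap of single exons, Usp18, Dhx58 and Irf7 overlap a gene on the opposite strand by 124, 141 and 45 bases. By the same measure, Irf9 and Ifi47 overlap a gene on the same strand by 123 and 111 bases.

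Libraries were not alike across the list. Alcohol 1 was the highest alcohol sample in 23 of the 37 members, and alcohol 3 was the lowest in 16. Among controls, control 1 was the highest in 14 members and the lowest in 10, which included Isg15, Ifit1 and Ifit3. Alcohol 1 also stood apart in neutrophil markers, summed over 9 genes at 36.0 FPKM against 1.91 to 4.74 FPKM in the other alcohol samples and 3.33 to 5.87 FPKM in controls. Without each sample in turn, 14 to 17 tested members were lower and none was higher. These were not always the same members, since Gbp7 passed without alcohol 1 and Oasl1 without control 4, while Igtp and Parp9 were lost without some samples.

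The size of the changes depended on scaling. Median-of-ratios and TPM scaling use a single factor per sample. They shift members and all genes nearly alike, apart from the effect of the 1 added before the log. A steady distance of the members from all genes under these scalings is therefore not a test of it. Removal of the length trend acts by gene and could move this distance, which went from -0.86 to -0.79. The median of all tested genes was 0.24 as deposited, -0.03 with median-of-ratios scaling, 0.40 on the TPM scale and 0.22 after removing each sample's trend on gene length. Over the same scalings the members' median was -0.62, -0.92, -0.51 and -0.57, which lay -0.86, -0.89, -0.91 and -0.79 from the median of all genes. The members lower numbered 16 as deposited, 20 with median-of-ratios scaling, 14 on the TPM scale and 16 with the length trend removed, and none was higher in any of these fits. Among all tested genes 28.3% were lower and 23.5% higher with median-of-ratios scaling, 8.82% lower and 52.7% higher on the TPM scale, and 12.4% lower and 44.5% higher with the length trend removed. The length check was added because short genes ran lower than long ones. In 5 bins of tested genes from shortest to longest, the median log2 change was -0.06, 0.16, 0.26, 0.33 and 0.40. The members called lower numbered 3 of 3, 6 of 8, 6 of 8, 1 of 4 and 0 of 1 in the same bins, of which the last holds a single member.

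**Figure D4:**
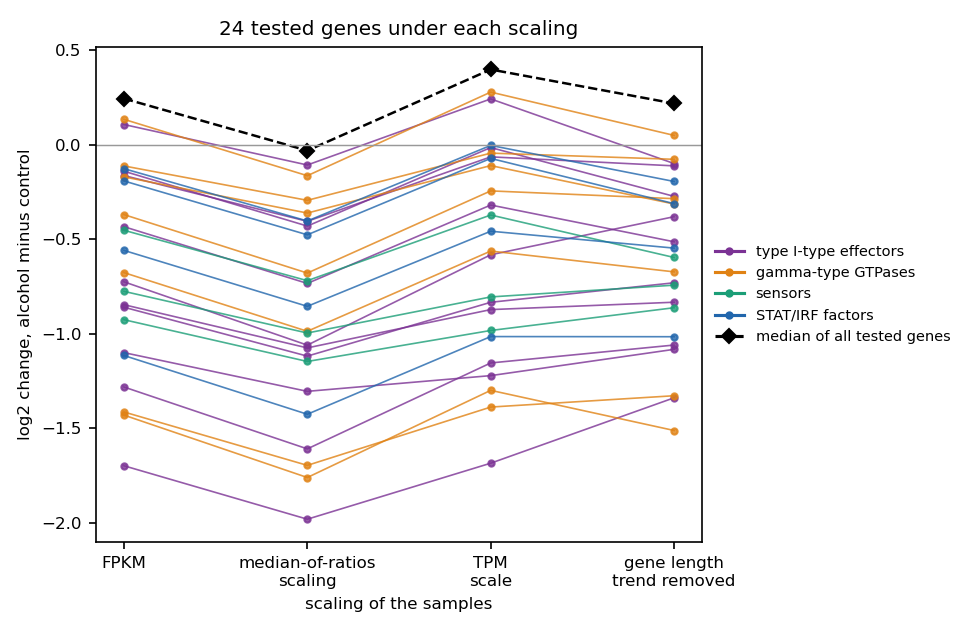
Log2 change (alcohol minus control) of the 24 tested members under 4 scalings of the samples, coloured by role; black diamonds are the median of all tested genes. The median of the 24 members moves down to -0.92 with median-of-ratios scaling and up to -0.51 on the TPM scale. The median of the 3 sensors instead moves from -0.78 to -0.81 on the TPM scale. Every member stays below the diamonds.

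Other genes of the interferon pathway were read from lists of genes by role. Of the interferon genes, Ifnk and Ifng were in the table, and each had at most 1 read in a sample, so their levels could not be compared at this depth. Among 5 tested receptor genes none was lower and 2 were higher, a share near the 44.2% of all tested genes called higher; with median-of-ratios scaling 2 were lower and 1 was higher. Ifngr1, the ligand-binding chain of the interferon gamma receptor, stood at 13.8, 12.0, 11.7 and 12.8 FPKM with alcohol, against 7.91, 4.49, 6.83 and 6.51 FPKM in controls, without overlap (log2 change 0.89 ± 0.14, adjusted p 0.000426). Ifngr2, its signalling chain, rose by 0.36 on the log2 scale (adjusted p 0.0161), a call that was lost with median-of-ratios scaling. Ifnar1 and Ifnar2, the type I receptor chains, had log2 changes of -0.22 and -0.20 that did not pass. With median-of-ratios scaling both passed as lower (Ifnar1 at -0.50, adjusted p 0.00106, and Ifnar2 at -0.51, adjusted p 0.0103), and Ifnar1 also passed with the length trend removed (adjusted p 0.00171).

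Among kinases and feedback inhibitors downstream of the receptors, 1 of 9 tested genes was lower and 4 were higher, shares near the 13% and 44.2% of all tested genes. The phosphatase Ptpn6 was the lower one (log2 change -0.40, adjusted p 0.00682), a call lost on the TPM scale. The kinase Jak1 had a log2 change of 0.86 (adjusted p 0.000724), and the phosphatases Ptpn11 and Ptpn2 and the STAT inhibitor Pias1 had changes of 0.88, 0.41 and 0.39. The calls of Ptpn2 and Pias1 were lost with median-of-ratios scaling, and that of Ptpn2 also with the length trend removed. In the pathway that induces interferons, 1 of 10 tested genes was lower (the kinase Ikbke, log2 change -0.31, adjusted p 0.0406, lost on the TPM scale) and 2 were higher. These were the adaptor Mavs, at 0.57 (adjusted p 0.0243), and the kinase Tbk1, at 0.38 (adjusted p 0.0429), and neither passed with median-of-ratios scaling.

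Of 28 tested genes on a wider list of interferon-inducible genes outside the 39, 11 were lower and 5 were higher (13% and 44.2% of all tested genes), with a median log2 change of -0.17. The catalytic subunits of the immunoproteasome, Psmb9, Psmb8 and Psmb10, were lower by 1.30, 0.93 and 0.84 on the log2 scale. Ifitm3, a membrane protein that hinders virus entry, was lower by 0.97, while its relative Ifitm1 was higher by 0.86. Trim25, a ubiquitin ligase that acts on the RNA sensor RIG-I, was higher by 1.11 (adjusted p 6.38e-05). The interferon-inducible genes outside the 39 thus included calls in both directions.

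**Figure D5:**
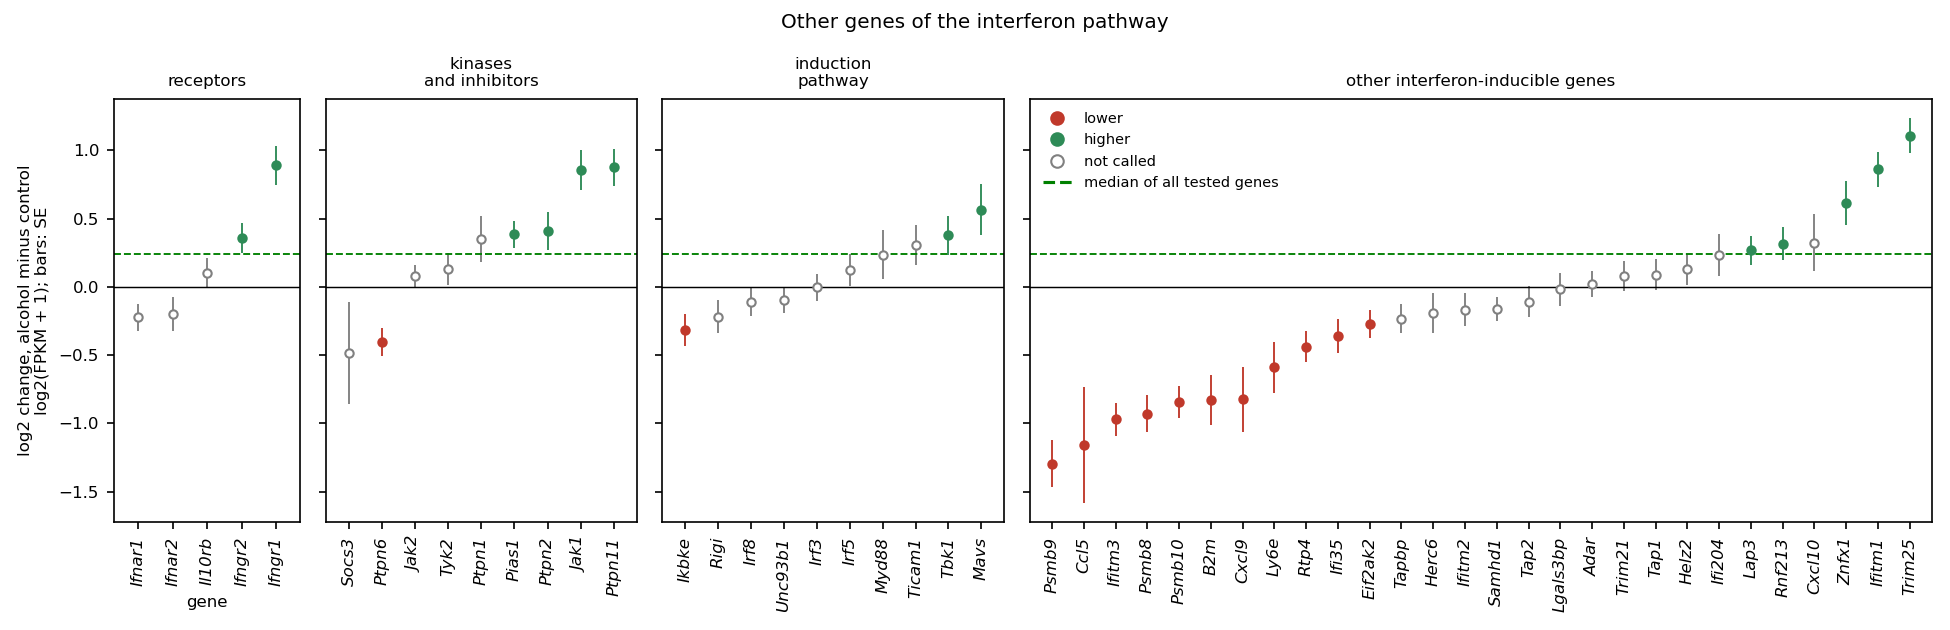
Log2 change (alcohol minus control, log2(FPKM + 1); bars, SE) of tested receptor genes, kinases and inhibitors, induction-pathway genes and other interferon-inducible genes. Red points were lower and green points higher with an adjusted p under 0.05, open points were not called, and the dashed line is the median of all tested genes. Ptpn6 lies at -0.40 and Ifngr1 at 0.89, and the wider list runs from Psmb9 at -1.30 to Trim25 at 1.11.

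Markers of some other cell types also moved between the groups, beside 44.2% of all tested genes higher and 13% lower. Sinusoidal endothelium markers were higher in 11 of 11 tested genes, of which Lyve1, Tek and Kdr had control means of 0.478, 0.529 and 0.882 FPKM and reached the expression minimum only through the alcohol samples. None of the 11 was listed at 0 in any sample. Kupffer cell markers had 1 of 10 tested genes lower and overlapping sums. Stellate cell markers had 5 of 8 tested genes higher and 1 lower, with Ecm1 no longer higher with median-of-ratios scaling, and sums of 167 to 232 FPKM with alcohol and 68.8 to 127 FPKM in controls. Sums over B and plasma cell markers were 1.07 to 1.71 FPKM with alcohol and 3.26 to 4.36 FPKM in controls. Those over T and NK cell markers overlapped, at 1.47 to 3.44 FPKM with alcohol and 3.14 to 7.49 FPKM in controls. Control 3 alone stood at 7.49 FPKM, and the other controls at 3.14 to 3.38 FPKM. Of the 12 T and NK markers, 1 was lower in the fit over all genes, Cd4 (adjusted p 0.000555), and 0 were higher. Dendritic cell markers other than Bst2 summed to 1.72 to 2.13 FPKM with alcohol and 2.28 to 2.84 FPKM in controls. The largest part of each sum was Irf8, which did not pass (adjusted p 0.383). Of these 9 markers, 0 were lower and 1 was higher in the fit over all genes. The higher one was Tcf4 (log2 change 0.11, adjusted p 0.00183). Cholangiocyte markers summed to 15.9 to 26.7 FPKM with alcohol and 19.0 to 41.8 FPKM in controls. Most of each sum was Spp1, which did not pass (adjusted p 0.0615). In the fit over all genes, 1 of these 6 markers was higher, Sox9 (log2 change 0.47, adjusted p 0.0356), and 0 were lower. In that fit 24.2% of all genes were higher. Red blood cell markers summed to 122 to 196 FPKM with alcohol and 179 to 362 FPKM in controls. Hepatocyte markers had 3 of 8 tested genes lower and 1 higher, and none passed in the fit over all genes. The higher one, Cps1, was lost with median-of-ratios scaling and with the length trend removed, and Cyp2e1, one of those lower, on the TPM scale. No gene of these marker lists was at 0 in every sample. The part of these cell types in the lower levels of the interferon-stimulated genes was not tested.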

How the data were processed

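Transcripts were measured by RNA sequencing in 8 samples. The deposited values are FPKM, per the labels, 1 column per sample for 21049 symbols, and the authors did not pool samples in a column. Per the labels' protocols, column-purified total RNA went into SMARTER mRNA libraries. The submitters' processing notes name GRCm38 and mm10; no source used here gives the aligner, counter, annotation or strandedness. FPKM divides each library by its own total, so abundant transcripts move all other values.

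The comparison used limma 3.58.1 (R 4.3.3) and log2(FPKM + 1). It took the 9228 genes whose mean over 8 samples reached 1 FPKM, with a variance trend on mean level, 2-sided p-values and Benjamini-Hochberg adjustment over all tested genes at 0.05. Members below 1 FPKM were fitted in the same way with all 21049 genes. Single members' mean FPKM was tested by exact permutation of the group labels, 2-sided. The fit was also tested on simulated data in which few genes changed, as many up as down. That test does not bear on how the samples were scaled. Whole reads were recovered from FPKM for 21044 genes (99.98%, tolerance 1e-06 of a read), which gave the library totals and 1 alternative test; for low genes they may be a fraction of the true reads. Coordinates and exon overlaps come from GENCODE M21, matched by symbol.

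The members, roles, gene lists and tests were chosen with earlier results of these data known. Values per sample are given for the members with the smallest p in each role (up to 8 type I-type genes, 4 GTPases, 2 sensors and 3 factors). Of pathway lists, up to 6 genes past the threshold are named, and 1 gene is not reported here. Further members shown in full were chosen after their values were seen. Alternatives were another pseudocount, no expression minimum, other scalings, no variance trend, voom on the recovered reads, a replicate block, leaving out each sample, averaging alcohol 2 and 4, and, chosen after seeing the data, removal of the gene length trend.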

Additional observations from a re-analysis of the deposited data

Results flagged for a closer look

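In 8 of 74 groups of 4 samples (37 genes, 2 groups each), 1 sample lay far from the other 3, with a gap to its neighbour that took most of the group's range and passed Dixon's 95% value. Chance alone flags about 1 in 20 groups. Alcohol 1 had the lowest Ifit2 of its group (0.252 FPKM, gap 0.85 of the range) and the highest Gbp6 (1.27 FPKM, gap 0.83). Control 3 had the highest Irgm1 (16.4 FPKM, gap 0.902) and the highest Gbp2 (1.70 FPKM, gap 0.901) of its group, and the lowest Stat2 (4.40 FPKM, gap 0.86). Control 1 had the highest Parp14 (2.48 FPKM, gap 0.834), control 2 the highest Dhx58 (3.31 FPKM, gap 0.878) and control 4 the lowest Oasl1 (2.06 FPKM, gap 0.854). Of these genes, Irgm1 and Dhx58 were called lower with alcohol, and both calls held without the sample in question. Oasl1 passed as lower without control 4, and the log2 change of Irgm2, whose highest value was also in alcohol 1, turned negative without that sample.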

How the results depend on the processing

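Calls of Isg15, Ifit1, Ifit3, Usp18, Ifi27, Bst2, Ifi47, Irgm1, Iigp1, Ifih1, Dhx58, Zbp1, Irf7 and Irf9, and of the low genes Oas1a, Xaf1 and Gbp3, held under every alternative run, the highest adjusted p being 0.049 for Ifih1. None of the 24 tested members was higher in any of them. Without each sample in turn, lower calls numbered 14 to 17 among all members, 6 to 8 among type I-type genes, 3 to 5 among GTPases, 3 among sensors and 2 among factors, with a member median of -0.69 to -0.56; over all genes, 1000 to 1278 were lower and 3537 to 4362 higher. With median-of-ratios scaling 2616 genes were lower and 2170 higher, against 1203 and 4080 as deposited; with quantile normalization, 2307 lower and 2221 higher, with 4 factors lower. The member median was -0.92 with median-of-ratios scaling, -0.81 with quantile normalization and -0.40 with no expression minimum, where 37 members enter. With median-of-ratios scaling, lower and higher calls were 2 and 1 among receptors, 5 and 0 in the induction pathway, and 17 and 2 in the wider list, and 2 kinases or inhibitors were higher. On the TPM scale 0 kinases or inhibitors and 0 induction genes were lower; with the length trend removed, 1 receptor and 2 induction genes. The cause was not tested.

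Among uncalled members, signs turned for Ifit2 (0.052 on the TPM scale; -0.027 to 0.046 without 1 sample, 0.017 without control 2), Parp14 (-0.11 with median-of-ratios scaling, -0.21 with quantile normalization, -0.10 with the length trend removed), Irgm2 (-0.16 with median-of-ratios scaling, -0.15 with quantile normalization, -0.060 to 0.29 without 1 sample) and Gbp6 (0.066 on the TPM scale, 0.025 with alcohol 2 and 4 averaged, -0.14 to 0.056 without 1 sample). Nothing in the labels says that replicate numbers pair the samples, and same-numbered deviations correlated at 0.349, 0.216, 0.0706 and 0.280, of which 1 was under 0.1; samples numbered 1 and 4 correlated best with their own number, a hint from the data. With the replicate block 16 members, 7 type I-type genes, 4 GTPases, 3 sensors and 2 factors were lower, Ifit3b also passed as lower and Trim30a as higher, both fitted with all genes; Rsad2 passed as higher without control 1. Genes with few reads, such as Oas1g (5 to 37 reads) and Oas2 (7 to 66 reads), limit what a fall or rise could show.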
